A study of Arabidopsis thaliana with 6 samples.

Results

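The comparison described here set fio1-1 seedlings against wild-type (WT) Col-0 seedlings of Arabidopsis thaliana. FIO1 (FIONA1, AT2G21070) encodes the plant relative of the human methyltransferase METTL16, which places N6-methyladenosine (m6A) on RNA. The mutant fio1-1 carries a chemically induced change at a splice site of FIO1. Its members were chosen by label, as the 2 libraries titled fio1-1 and the 2 titled Col-0, which are 4 of the 6 RNA-seq libraries of the series. The remaining 2 libraries, labelled fio1-2, come from a further fio1 mutant. They entered the filter on low counts, the scaling and the shared estimate of spread behind all p-values. Their levels are given to show where fio1-1 stood apart. The study describes its RNA-seq as wild type, fio1-1 and the CRISPR-edited allele fio1-5. It uses the name fio1-2 for a T-DNA knock-down line of another study. By that description these 2 libraries would be the edited allele and not the T-DNA line, but their label fio1-2 is kept here. All seedlings were 14 days old and untreated, were grown in long days of 16 h light and 8 h dark, and were harvested whole. Each line is represented by a single allele.

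As background, m6A is a methyl mark on internal adenosines of RNA. It is written by methyltransferases, removed by demethylases of the ALKBH family and read by proteins with a YTH domain, called ECT proteins in Arabidopsis, and it can alter the splicing, stability or translation of a transcript. METTL16 methylates the U6 small nuclear RNA and mRNAs of S-adenosylmethionine (SAM) synthetase in human cells, and fio1 mutants are known for early flowering and an altered circadian period.

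The 2 fio1-1 libraries held 10260837 and 10102640 counts and the 2 WT libraries 9717111 and 10344511. The 20 most abundant genes took 11.3% and 10.9% of the counts in fio1-1 and 9.04% and 8.95% in WT. Markers of photosynthetic shoot tissue were abundant in all libraries, whereas 3 of 10 floral organ identity genes passed the filter on low counts and 0 of those 3 were called. Of 12 root markers, 0 were called, with a median log2 fold change of -0.18. Over all tested genes 4.91% were called, so the 0 calls say little for lists of this size. Summed root markers reached 110.4 and 112 CPM in fio1-1, 162 and 158 CPM in fio1-2 and 117 and 112 CPM in WT, and summed floral markers 19.6 and 18.8 CPM in fio1-1, 29.8 and 28.5 CPM in fio1-2 and 17.87 and 17.87 CPM in WT, with AG at 0 in all 6 libraries. Because whole seedlings were sequenced, fewer cells of a type and less RNA per cell cannot be told apart. The methods call the replicates biological. The p-values measure only the spread between the 2 libraries of each of the 3 genotypes, which the fit shared across genes. Each gene had 3 residual degrees of freedom of its own, and the shared estimate added 62.1.

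The FIO1 locus lies on chromosome 2 at 9040852 to 9043651 of the TAIR10.1 assembly. To show where the fio1-1 lesion was assayed, the primers that the study lists for genotyping fio1-1 were placed on the RefSeq sequence. The forward primer covers chr2:9041522-9041553 inside intron 2 and ends 1 base before the last base of that intron, position 9041554. It carries a designed mismatch, C28A (the primer has C at position 28, counted from 1 at its 5′ end, and the reference has A). The reverse primer matches exon 3 at chr2:9041767-9041790 on the minus strand without a mismatch. The window below holds the annotated end of intron 2 and the start of exon 3 in WT reference sequence, with capitals for the annotated AG acceptor and for the next AG, which ends 15 bases (5 codons) into exon 3. The mutant base itself was not read from any file.
FIO1 acceptor of intron 2, chr2:9041540-9041569, plus strand: ttgttttgtatgcAGattttactgttgtAG
fio1-1 reverse genotyping primer: aacaccgagtagtacagctggttc

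FIO1 transcript abundance was not called different between the genotypes. FIO1 had 8.24 and 8.54 CPM in fio1-1, against 11.1 and 8.94 CPM in WT, where CPM is the read count scaled to a common library size with TMM factors (log2 fold change -0.24 ± 0.18, adjusted p = 0.35, where ± gives the standard error). The fio1-1 values lay below both WT values, but the difference did not pass the test. A count per gene cannot show which acceptor was used.

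Across the transcriptome, fio1-1 differed from WT at a small share of genes by a large factor and at many genes by a small one. A gene was called when its adjusted p was under 0.05 and its fold change at least 2 in either direction. Of 21268 tested genes, 621 were called higher (2.92%) and 424 lower (1.99%) in fio1-1. The adjusted p alone was passed by 3026 higher and 3047 lower genes, 28.6% of those tested. Of these, 1637 higher and 2024 lower genes changed less than 1.5-fold, and only 132 higher and 73 lower genes changed 4-fold or more. The median log2 fold change of all tested genes was 0.0075. For scale, the 2 fio1-1 and the 2 WT values did not overlap at 63% of tested genes, so lack of overlap by itself separates few genes from the rest. The called genes were spread over the 5 nuclear chromosomes, with 2.78% to 3.1% of tested genes higher and 1.81% to 2.18% lower on each. Of called genes with a position, 29.2% overlap another annotated gene, 26.3% on the opposite strand. As the strand setting of the counting is not stated, reads of such pairs cannot be assigned with certainty. The same holds for near-identical copies such as the LHCB2 genes or KIN1 and KIN2.

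**Figure D1:**
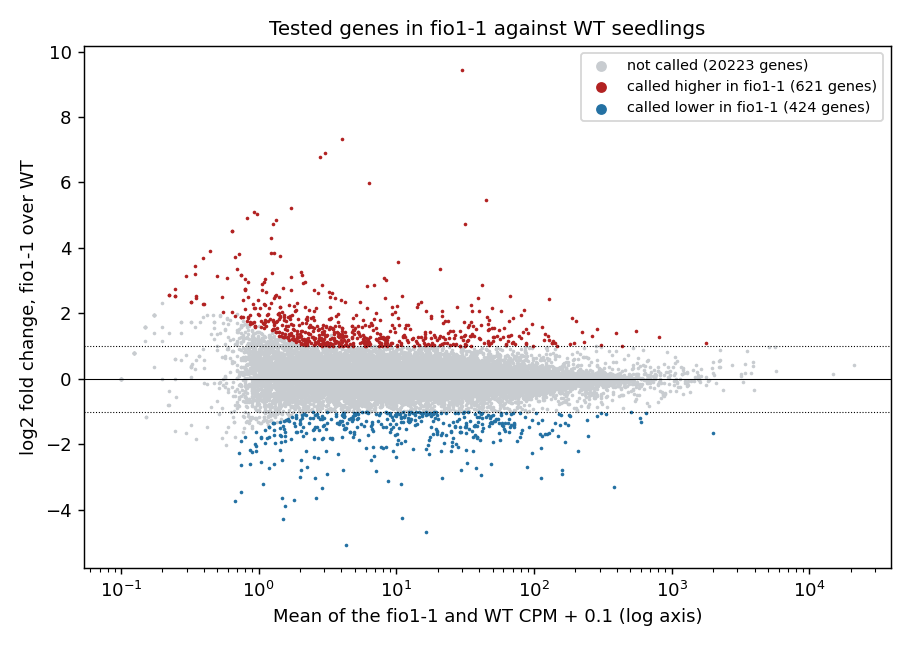
Log2 fold change of fio1-1 over WT for each tested gene (y axis) against the mean CPM of both genotypes plus 0.1 (x axis, log scale). Red points are the 621 genes called higher and blue points the 424 called lower in fio1-1, and dotted lines mark a 2-fold change.

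The largest increase was at AT2G01422, a noncoding RNA gene at chromosome 2, 183940 to 184734, plus strand. Its raw counts were 607 and 598 in fio1-1, 8 and 5 in fio1-2 and 1 and 0 in WT, so it was nearly silent outside fio1-1. The ratio of summed counts, scaled for depth, was 1187 with a 95% counting interval of 213 to 46928. The fitted log2 fold change was 9.45, or 10.28 without WT replicate 1 and 8.61 without WT replicate 2. The next gene upstream, the auxin efflux carrier gene PIN4, lies on the minus strand with its annotated start 175 bases away, so that the 2 genes are divergent, and had 115 and 109.6 CPM in fio1-1, against 95.4 and 94.4 CPM in WT (log2 fold change 0.24 ± 0.06, adjusted p = 0.0011). The next tested gene downstream, HB17, had 1.39 and 1.39 CPM in fio1-1, against 1.02 and 1.54 CPM in WT (log2 fold change 0.13 ± 0.48, adjusted p = 0.87). Neither neighbour was called.

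XTH33, which encodes a xyloglucan endotransglucosylase/hydrolase that cuts and rejoins wall xyloglucan, had 59.4 and 61.4 CPM in fio1-1, 8.41 and 9.11 CPM in fio1-2 and 2.45 and 2.02 CPM in WT (log2 fold change 4.73 ± 0.26, adjusted p = 1.2e-24 against WT). The order fio1-1, fio1-2, WT held without overlap. Its relative XTH23 had 39.3 and 35.9 CPM in fio1-1, 13.4 and 16 CPM in fio1-2 and 3.88 and 3.46 CPM in WT (log2 fold change 3.34 ± 0.22, adjusted p = 1.9e-21). The expansin-like gene EXLA1 had 72 and 75.9 CPM in fio1-1, 33 and 32.9 CPM in fio1-2 and 10.6 and 9.52 CPM in WT (log2 fold change 2.87 ± 0.13, adjusted p = 2.5e-29). The 3 wall genes therefore shared the order of the genotypes. SLAH3, a nitrate-permeable anion channel, had 117 and 112 CPM in fio1-1, 36.2 and 37 CPM in fio1-2 and 20.9 and 18.8 CPM in WT (log2 fold change 2.53 ± 0.10, adjusted p = 1.5e-33). AT1G72416, a DnaJ-domain protein, had 68.9 and 64.9 CPM in fio1-1, 22.1 and 18.4 CPM in fio1-2 and 11.9 and 12.1 CPM in WT (log2 fold change 2.47 ± 0.12, adjusted p = 4.4e-27). In both, the 2 fio1-2 libraries lay between fio1-1 and WT.

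Some of the further increased genes belong to carbon metabolism. ICL, the isocitrate lyase of the glyoxylate cycle, had 93.7 and 81.3 CPM in fio1-1, 89.1 and 83.6 CPM in fio1-2 and 2.25 and 1.64 CPM in WT (log2 fold change 5.48 ± 0.30, adjusted p = 1.8e-25). MLS, the malate synthase of the same cycle, had 13.7 and 14.1 CPM in fio1-1, 43.1 and 38.7 CPM in fio1-2 and 3.07 and 2.02 CPM in WT (log2 fold change 2.47 ± 0.27, adjusted p = 1.2e-11). Both glyoxylate cycle enzymes were low in WT, and the highest MLS values were those of fio1-2. GPT2, a plastid glucose-6-phosphate/phosphate translocator, had 14 and 14.8 CPM in fio1-1, against 1.94 and 1.44 CPM in WT (log2 fold change 3.07 ± 0.32, adjusted p = 1.6e-12). The lipid transfer protein gene LTP4 had 17.7 and 19.8 CPM in fio1-1, against 1.02 and 2.21 CPM in WT (log2 fold change 3.57 ± 0.35, adjusted p = 1.6e-13). PR1, a pathogenesis-related gene that responds to salicylate, had 15.2 and 14.3 CPM in fio1-1, 44.4 and 52.1 CPM in fio1-2 and 1.64 and 1.92 CPM in WT (log2 fold change 3.02 ± 0.31, adjusted p = 1.8e-12). AT1G80130, a tetratricopeptide-repeat protein, had 10.7 and 13 CPM in fio1-1, against 2.15 and 1.15 CPM in WT (log2 fold change 2.88 ± 0.33, adjusted p = 6.1e-11). MES18, of the methyl esterase family, had 19.8 and 17.78 CPM in fio1-1, against 3.17 and 3.17 CPM in WT (log2 fold change 2.54 ± 0.24, adjusted p = 1.8e-14). AT5G08825, a noncoding gene inside MES18 on the opposite strand, had 10.7 and 10.6 CPM in fio1-1, against 1.23 and 1.73 CPM in WT; the source of their shared reads is uncertain.

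Among genes with a mean of at least 5 CPM over the fio1-1 and WT libraries and no overlap between them, the 15 that fell furthest included 9 that encode enzymes that conjugate, oxidise or reduce small molecules. CYP81D11, a cytochrome P450 known to be induced by foreign chemicals, had 23.2 and 25.6 CPM in fio1-1, against 199 and 200.4 CPM in WT (log2 fold change -3.03 ± 0.09, adjusted p = 4.5e-41). CYP81D8 had 3.97 and 5.36 CPM in fio1-1, against 39.96 and 35.9 CPM in WT (log2 fold change -3.02 ± 0.20, adjusted p = 3.8e-21). The glucosyltransferase genes UGT73C1, UGT73C5 and UGT74E2 fell as well. UGT73C1 had 0.794 and 1.39 CPM in fio1-1, against 21.2 and 20.5 CPM in WT (log2 fold change -4.24 ± 0.37, adjusted p = 2.2e-15). UGT73C5, which glucosylates brassinosteroids and the fungal toxin deoxynivalenol, had 9.23 and 9.53 CPM in fio1-1, against 74.7 and 70.8 CPM in WT (log2 fold change -2.95 ± 0.13, adjusted p = 3.2e-29). UGT74E2, which glucosylates indole-3-butyric acid, had 11.8 and 15.69 CPM in fio1-1, against 80.03 and 85.7 CPM in WT (log2 fold change -2.60 ± 0.12, adjusted p = 1.6e-28). In all 3, each fio1-1 library lay several-fold below each WT library. ChlAKR, a chloroplast aldo-keto reductase, had 10.7 and 9.43 CPM in fio1-1, against 64.7 and 67.2 CPM in WT (log2 fold change -2.71 ± 0.13, adjusted p = 8.2e-28). UGT73B2 had 23.62 and 24.2 CPM in fio1-1, against 157 and 149 CPM in WT (log2 fold change -2.68 ± 0.10, adjusted p = 4.7e-35). UGT75B1 (38.8 and 35.7 CPM in fio1-1, against 286 and 276 CPM in WT) shares its whole span with the noncoding gene AT1G05562 on the other strand (42 and 38.4 CPM in fio1-1, against 283 and 276 CPM in WT), so these values cannot be separated.

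Further genes among these 15 had other roles. AT4G01870, a TolB-like protein, had 74.5 and 67.6 CPM in fio1-1, against 704 and 689.6 CPM in WT (log2 fold change -3.29 ± 0.06, adjusted p = 1.6e-53). AT4G08555, an uncharacterized protein, had 1.09 and 1.29 CPM in fio1-1, against 31.4 and 31.3 CPM in WT (log2 fold change -4.66 ± 0.35, adjusted p = 1.8e-18). AT4G07820, a cysteine-rich secretory protein, had 1.89 and 1.59 CPM in fio1-1, against 15.8 and 15.1 CPM in WT (log2 fold change -3.12 ± 0.32, adjusted p = 7.3e-13). ORA47, an AP2/ERF transcription factor of the jasmonate response, had 2.18 and 1.29 CPM in fio1-1, against 12.7 and 11.8 CPM in WT (log2 fold change -2.83 ± 0.32, adjusted p = 3.0e-11). In these 4 genes each fio1-1 library lay several-fold below each WT library. SUFE2, an activator of cysteine desulfurase in iron-sulfur cluster assembly, had 5.96 and 7.15 CPM in fio1-1, against 77.6 and 26.9 CPM in WT (log2 fold change -2.78 ± 0.31, adjusted p = 1.3e-11), and its 2 WT values disagreed: the log2 fold change was -2.04 without WT replicate 1 and -3.56 without WT replicate 2.

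**Figure D2:**
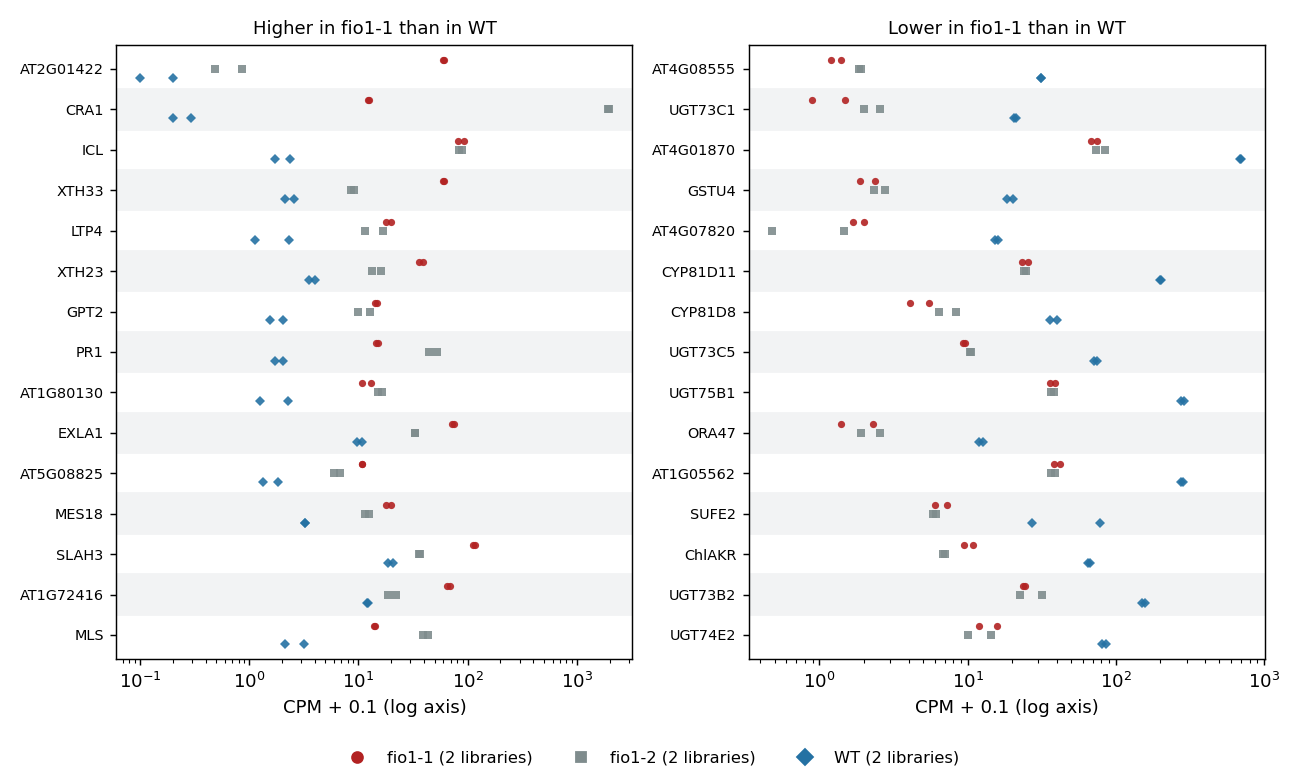
CPM plus 0.1 (x axis, log scale) in each library for the 15 genes with the largest increase (left) and the 15 with the largest decrease (right) in fio1-1 against WT, among genes with a mean of at least 5 CPM over these libraries and no overlap between the genotypes. Points are single libraries of fio1-1 (red), fio1-2 (grey) and WT (blue); at most of the decreased genes fio1-2 lies beside fio1-1.

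The list of xenobiotic detoxification genes (glutathione transferases of the tau class and UGT73C enzymes) had 20 tested members. Of these 0 were called higher and 9 lower, with a median log2 fold change of -0.70, beside 2.92% higher and 1.99% lower over all tested genes. GSTU24 had 32.9 and 33.7 CPM in fio1-1, 33.2 and 27.8 CPM in fio1-2 and 161 and 159 CPM in WT (log2 fold change -2.27 ± 0.08, adjusted p = 8.4e-36). GSTU7 had 36.6 and 34.3 CPM in fio1-1, 37.5 and 37.7 CPM in fio1-2 and 125 and 119.8 CPM in WT (log2 fold change -1.79 ± 0.08, adjusted p = 1.7e-30). GSTU1 had 16.8 and 18.1 CPM in fio1-1, 17 and 18 CPM in fio1-2 and 63 and 57.3 CPM in WT (log2 fold change -1.78 ± 0.11, adjusted p = 5.2e-23). The fio1-2 values lay at the fio1-1 level in all 3, and 0 of the 20 members were called between fio1-1 and fio1-2, a contrast in which 2.68% of all tested genes were called, so the 0 says little about the list. The family did not move as a block. GSTU25, at the locus next to GSTU24, had 27.5 and 26.8 CPM in fio1-1, against 16.8 and 19.8 CPM in WT (log2 fold change 0.57 ± 0.12, adjusted p = 9.7e-05), and GSTU22 and GSTU27 passed the adjusted p in the same direction. The lower genes lay partly side by side. GSTU4, GSTU2, the noncoding AT2G29485 and GSTU1 were 4 consecutive tested genes called lower, at chromosome 2, 12626478 to 12632538. UGT73C1, AT2G36770 and AT2G36780 formed a run of 3 at 15410376 to 15419391 of the same chromosome. Neighbours in such runs are related copies whose reads may be shared.

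TGACG, the core bound by TGA factors that act in the response to foreign chemicals, was searched on both strands from 250 bases before to 50 bases after each annotated gene start, after the values had been seen. It was present in 13 of 20 list promoters (65%), beside 23.8% of 21224 promoters of tested genes. Within the list it was present in 4 of 9 genes called lower and in 9 of 11 not called. The windows below are shown because they hold the match nearest before the gene start in the 4 lower genes, with every match inside the window in capitals (CGTCA where it lies on the other strand; 2 matches overlap in GSTU7).
GSTU24, chr1:5869362-5869391, plus strand: tccaaagcatgcTGACGcaggcagtggcct
GSTU7, chr2:12618931-12618960, minus strand: CGTCActggTGACGTCAccattctttctta
GSTU1, chr2:12632586-12632615, minus strand: TGACGttggcaaTGACGtgcataccttaaa
UGT73C5, chr2:15425294-15425323, minus strand: atttttgagactTGACGatagatgtagcta

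Phosphate starvation genes were lower in fio1-1. When phosphate is scarce, the factor PHR1 binds the P1BS element and raises genes for phosphate uptake, for release of phosphate from organic compounds and for replacement of phospholipids, while SPX proteins sense phosphate and restrain PHR1. Of 20 tested members of this list, 0 were called higher and 9 lower, 13 passed the adjusted p in the lower direction and 0 in the higher, and the median log2 fold change was -0.70. Among all tested genes 2.92% were called higher and 1.99% lower, and 14.3% passed the adjusted p as lower. All 9 called members were also called lower in fio1-1 against fio1-2. Over all tested genes 60 (0.282%) were called lower, and 50 (0.235%) higher, against both other genotypes.

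Among the sensors and transporters, SPX1 had 7.84 and 9.63 CPM in fio1-1, 26.5 and 22 CPM in fio1-2 and 25.1 and 30.8 CPM in WT (log2 fold change -1.68 ± 0.16, adjusted p = 4.2e-14 against WT). The phosphate transporter gene PHT1;4 had 12.9 and 15.5 CPM in fio1-1, 28.9 and 30.2 CPM in fio1-2 and 41.5 and 45 CPM in WT (log2 fold change -1.61 ± 0.12, adjusted p = 1.9e-18). PHO1;H1, a phosphate exporter relative, had 7.05 and 8.84 CPM in fio1-1, 16.8 and 20.8 CPM in fio1-2 and 16.3 and 17.1 CPM in WT (log2 fold change -1.08 ± 0.17, adjusted p = 5.8e-07). Each of these 3 genes was lowest in both fio1-1 libraries. PHT1;1, the major uptake transporter, had 53.7 and 60.1 CPM in fio1-1, against 74.7 and 75.1 CPM in WT and was not called (log2 fold change -0.40 ± 0.07, adjusted p = 9.3e-06).

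Among phosphate-releasing enzymes, the acid phosphatase PAP17 had 13.3 and 13.3 CPM in fio1-1, 29.1 and 27.6 CPM in fio1-2 and 32.9 and 37.3 CPM in WT (log2 fold change -1.40 ± 0.13, adjusted p = 5.8e-15). The pyrophosphatase PS2 had 0.496 and 1.19 CPM in fio1-1, 1.82 and 2.22 CPM in fio1-2 and 4.09 and 4.62 CPM in WT (log2 fold change -2.42 ± 0.45, adjusted p = 1.6e-05). The phosphatase PEPC1 had 0.596 and 0 CPM in fio1-1, 1.53 and 2.37 CPM in fio1-2 and 2.86 and 2.40 CPM in WT (log2 fold change -3.90 ± 0.78, adjusted p = 5.5e-05). PS2 and PEPC1 were near the lower limit of detection in fio1-1, and their standard errors are wide. Without fio1-1 replicate 1 or 2, the log2 fold change of PS2 was -1.83 or -3.01 and that of PEPC1 was -5.75 or -2.05. Of the lipid-remodelling genes, MGD3, a monogalactosyldiacylglycerol synthase, had 0.298 and 0.695 CPM in fio1-1, 2.68 and 4.06 CPM in fio1-2 and 5.31 and 4.91 CPM in WT (log2 fold change -3.34 ± 0.53, adjusted p = 4.8e-07). SRG3, a glycerophosphodiester phosphodiesterase, had 18.7 and 17.7 CPM in fio1-1, 34.7 and 38 CPM in fio1-2 and 39.1 and 35.8 CPM in WT (log2 fold change -1.04 ± 0.11, adjusted p = 6.5e-12). The phospholipase D gene PLDP2 had 3.08 and 2.58 CPM in fio1-1, 6.59 and 9.19 CPM in fio1-2 and 6.34 and 6.92 CPM in WT (log2 fold change -1.22 ± 0.28, adjusted p = 0.00046). In contrast SQD1, for sulfolipid synthesis, fell by less than the fold threshold, with 68.6 and 62.2 CPM in fio1-1, against 82 and 85.8 CPM in WT (log2 fold change -0.36 ± 0.07, adjusted p = 2.4e-05).

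P1BS was searched as GNATATNC on both strands of the same promoter windows, also after the values had been seen. It was present in 9 of 20 list promoters (45.0%), beside 6.17% of promoters of all tested genes and 10.6% of those called lower. Of the 9 members called lower 5 held it, and of the 11 not called 4 did. Among the 60 genes lower than both other genotypes, 11 (18.3%) held it. The windows show it in the 5 lower members.
SPX1, chr5:6802293-6802322, plus strand: cagagaaaaaaGGATATTCtaattagaaac
PHT1;4, chr2:16257139-16257168, plus strand: gttgttcggaaGAATATACcgaagtagcaa
PS2, chr1:27466547-27466576, minus strand: tttgggtaacgGAATATTCttctcttattc
SRG3, chr3:350055-350084, minus strand: ggcgatccaaaGAATATTCcaagatcccat
PLDP2, chr3:1635003-1635032, plus strand: gtaaccaagttGCATATACacggcagggta

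Sulfate assimilation genes were also lower in fio1-1, with 0 of 15 tested members called higher, 5 lower and a median log2 fold change of -0.72. The shares over all tested genes were 2.92% called higher and 1.99% lower. The APS reductases control the flux of sulfate into cysteine. APR3 had 71.3 and 67.8 CPM in fio1-1, 119 and 117 CPM in fio1-2 and 262 and 266 CPM in WT (log2 fold change -1.92 ± 0.06, adjusted p = 1.6e-39). APR1 had 37.7 and 40.9 CPM in fio1-1, 83.8 and 82.9 CPM in fio1-2 and 101 and 108 CPM in WT (log2 fold change -1.42 ± 0.08, adjusted p = 2.7e-25), whereas APR2 had 99.2 and 92.5 CPM in fio1-1, against 130.4 and 132 CPM in WT and was not called (log2 fold change -0.46 ± 0.06, adjusted p = 1.8e-09). The sulfur deficiency markers LSU1 (0.893 and 1.19 CPM in fio1-1, against 3.99 and 3.65 CPM in WT; log2 fold change -1.84 ± 0.41, adjusted p = 0.00033) and LSU3 (0.596 and 0.596 CPM in fio1-1, against 1.94 and 2.31 CPM in WT; log2 fold change -1.75 ± 0.52, adjusted p = 0.007) had few counts. The LSU3 call was lost without WT replicate 2 (adjusted p = 0.057) and without fio1-1 replicate 1 or 2 (adjusted p = 0.083 and 0.082). SHM7, a serine hydroxymethyltransferase, had 29.7 and 29.7 CPM in fio1-1, 72.3 and 67.7 CPM in fio1-2 and 76.6 and 69.3 CPM in WT (log2 fold change -1.29 ± 0.09, adjusted p = 2.5e-20). SULTR2;1, a vascular sulfate transporter, moved the other way without reaching the fold threshold, with 69.98 and 77.6 CPM in fio1-1, 99.7 and 108 CPM in fio1-2 and 40.6 and 37.8 CPM in WT (log2 fold change 0.91 ± 0.08, adjusted p = 5.4e-15). Of the 5 called members 4 were also called lower against fio1-2, the exception being APR3, whose fio1-2 values lay between those of fio1-1 and WT.

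Nitrate assimilation genes moved by small amounts in one direction. Of 20 tested members, 16 passed the adjusted p in the lower direction and 1 in the higher, but only 3 were called lower, and the median log2 fold change was -0.36. Among all tested genes 14.3% passed the adjusted p as lower and 14.2% as higher, and 1.99% were called lower. NRT2.1, a high-affinity nitrate transporter, had 1.59 and 0.894 CPM in fio1-1, against 4.60 and 4.14 CPM in WT (log2 fold change -1.82 ± 0.39, adjusted p = 0.00016). HRS1, a nitrate-responsive transcription factor, had 20.3 and 19.4 CPM in fio1-1, against 44.9 and 52.3 CPM in WT (log2 fold change -1.29 ± 0.11, adjusted p = 2.1e-16). The asparagine synthetase gene ASN2 had 348 and 327 CPM in fio1-1, against 678 and 672 CPM in WT (log2 fold change -1.0 ± 0.04, adjusted p = 3.5e-34). ASN2 stood at the fold threshold and was not called without WT replicate 1 (-0.995) or fio1-1 replicate 2 (-0.96). The nitrate reductase gene NIA1, with 444 and 434 CPM in fio1-1, against 665 and 672 CPM in WT (log2 fold change -0.61 ± 0.04, adjusted p = 7.9e-24), fell by less than the fold threshold.

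Copper-dependent genes changed in a pattern that differed between the mutants. When copper is scarce, the miRNA miR398 lowers the copper/zinc superoxide dismutases and their chaperone, and the iron dismutase FSD1 takes over. The list had 14 tested members, of which 2 were called higher and 3 lower, with a median log2 fold change of -0.22, beside 2.92% higher and 1.99% lower over all tested genes. CSD2, the plastid copper/zinc dismutase, had 373 and 374 CPM in fio1-1, 55.5 and 58 CPM in fio1-2 and 155 and 149 CPM in WT (log2 fold change 1.3 ± 0.05, adjusted p = 2.0e-35). CSD1, the cytosolic enzyme, had 187 and 208 CPM in fio1-1, 53.7 and 49.1 CPM in fio1-2 and 98.1 and 97.9 CPM in WT (log2 fold change 1.01 ± 0.06, adjusted p = 2.1e-24). The chaperone CCS had 111 and 112 CPM in fio1-1, 29.1 and 28.2 CPM in fio1-2 and 60.00 and 60.2 CPM in WT (log2 fold change 0.89 ± 0.07, adjusted p = 1.4e-18), just under the fold threshold. FSD1 showed the inverse order, with 209 and 195 CPM in fio1-1, 778 and 755 CPM in fio1-2 and 419 and 412 CPM in WT (log2 fold change -1.04 ± 0.04, adjusted p = 2.5e-31). In all 4 genes WT lay between fio1-1 and fio1-2, with no overlap. CSD1 overlaps a neighbour on the other strand. CSD1 and FSD1 stood near the fold threshold, and without fio1-1 replicate 2 their log2 fold changes were 0.93 and -0.99. The cell-surface metal reductases FRO4 (5.66 and 5.36 CPM in fio1-1, 15.67 and 12.9 CPM in fio1-2 and 12 and 10.3 CPM in WT; log2 fold change -1.0 ± 0.21, adjusted p = 7.8e-05) and FRO5 (3.28 and 2.98 CPM in fio1-1, 17.39 and 16.5 CPM in fio1-2 and 16.7 and 16.3 CPM in WT; log2 fold change -2.38 ± 0.24, adjusted p = 4.1e-13) were lower in fio1-1 than in both other genotypes, FRO4 at the fold threshold. SPL7, the master regulator of copper scarcity, had 33.3 and 35.7 CPM in fio1-1, against 34.5 and 33.5 CPM in WT (log2 fold change 0.02 ± 0.10, adjusted p = 0.9).

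The miR398 precursor genes were examined after these values had been seen. MIR398b had raw counts of 32 and 28 in fio1-1, 98 and 112 in fio1-2 and 54 and 31 in WT, and MIR398c had 2 and 1 in fio1-1, 16 and 28 in fio1-2 and 6 and 4 in WT. Neither was called in fio1-1 against WT (MIR398b, log2 fold change -0.43 ± 0.31, adjusted p = 0.32; MIR398c, log2 fold change -1.47 ± 0.84, adjusted p = 0.19), and MIR408, a further copper-responsive precursor, was not called either (log2 fold change -0.57 ± 0.29, adjusted p = 0.14). Against fio1-2 the log2 fold changes were -1.57 (adjusted p = 3.1e-06) for MIR398b, -3.29 (adjusted p = 0.00045) for MIR398c and -1.57 (adjusted p = 1.5e-06) for MIR408. These libraries measure precursor transcripts at low counts and not mature miRNAs.

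Iron genes were called in both directions, with several uptake genes higher and 3 nicotianamine synthases lower. Root iron uptake in Arabidopsis rests on the reductase FRO2, the transporter IRT1 and secreted coumarins, under the bHLH factor FIT (FRU in the annotation) and its partners bHLH38, bHLH39, bHLH100 and bHLH101. Of 30 tested members, 4 were called higher and 3 lower, 8 passed the adjusted p as higher and 10 as lower, and the median log2 fold change was -0.03. For all tested genes the shares were 2.92% called higher and 1.99% lower, with 14.2% past the adjusted p as higher and 14.3% as lower. FRO2 had 82.5 and 87.6 CPM in fio1-1, 30.4 and 33.1 CPM in fio1-2 and 39.96 and 41.7 CPM in WT (log2 fold change 1.06 ± 0.08, adjusted p = 8.6e-19). IRT1 had 156 and 164 CPM in fio1-1, 64.2 and 62 CPM in fio1-2 and 81.4 and 84.4 CPM in WT (log2 fold change 0.95 ± 0.06, adjusted p = 2.2e-22), just under the fold threshold. CYP82C4, which hydroxylates the coumarin fraxetin, had 66.2 and 76.8 CPM in fio1-1, 18.4 and 21 CPM in fio1-2 and 20.2 and 18.3 CPM in WT (log2 fold change 1.89 ± 0.11, adjusted p = 9.3e-25). AT3G12900, a 2-oxoglutarate-dependent oxygenase of the coumarin pathway, had 14.4 and 15.6 CPM in fio1-1, 1.05 and 1.91 CPM in fio1-2 and 2.25 and 4.62 CPM in WT (log2 fold change 2.18 ± 0.25, adjusted p = 4.9e-11). The factor MYB72 had 2.58 and 1.89 CPM in fio1-1, 0.478 and 0.459 CPM in fio1-2 and 0.409 and 0.481 CPM in WT (log2 fold change 2.19 ± 0.56, adjusted p = 0.0015). Each of the 5 genes was highest in fio1-1.

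Unlike MYB72, none of FRU and its 4 bHLH partners passed the adjusted p as higher. FRU had 10.5 and 10.1 CPM in fio1-1, against 13.3 and 11.8 CPM in WT (log2 fold change -0.28 ± 0.16, adjusted p = 0.21). bHLH38 had 19.1 and 18.17 CPM in fio1-1, against 18 and 20.2 CPM in WT (log2 fold change -0.04 ± 0.13, adjusted p = 0.86). For bHLH100 the values were 29.9 and 28.4 CPM in fio1-1, against 28.6 and 29.1 CPM in WT (log2 fold change 0.01 ± 0.10, adjusted p = 0.95). bHLH39 had a log2 fold change of -0.16 (adjusted p = 0.32), and bHLH101 passed the adjusted p as lower (-0.48, adjusted p = 0.00082). Against fio1-2, however, bHLH38 was 1.5 and bHLH100 1.52 higher on the log2 scale (adjusted p = 2.7e-11 and 3.7e-15). The nicotianamine synthases make the metal chelator of long-distance transport. NAS1 had 31.7 and 31.9 CPM in fio1-1, 40.6 and 37 CPM in fio1-2 and 117 and 122 CPM in WT (log2 fold change -1.91 ± 0.08, adjusted p = 5.9e-31), NAS2 had 1.99 and 2.38 CPM in fio1-1, 2.48 and 1.99 CPM in fio1-2 and 5.21 and 5.58 CPM in WT (log2 fold change -1.29 ± 0.31, adjusted p = 0.00077) and NAS3 had 0.496 and 0.298 CPM in fio1-1, 2.39 and 3.98 CPM in fio1-2 and 2.25 and 2.50 CPM in WT (log2 fold change -2.48 ± 0.59, adjusted p = 0.00064). NAS1 and NAS2 lay close to fio1-2, while NAS3 was lower than both other genotypes. The ferritin FER1, which stores iron, had 56 and 61.6 CPM in fio1-1, against 124 and 111 CPM in WT (log2 fold change -1.0 ± 0.07, adjusted p = 1.9e-19), just under the fold threshold.

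**Figure D3:**
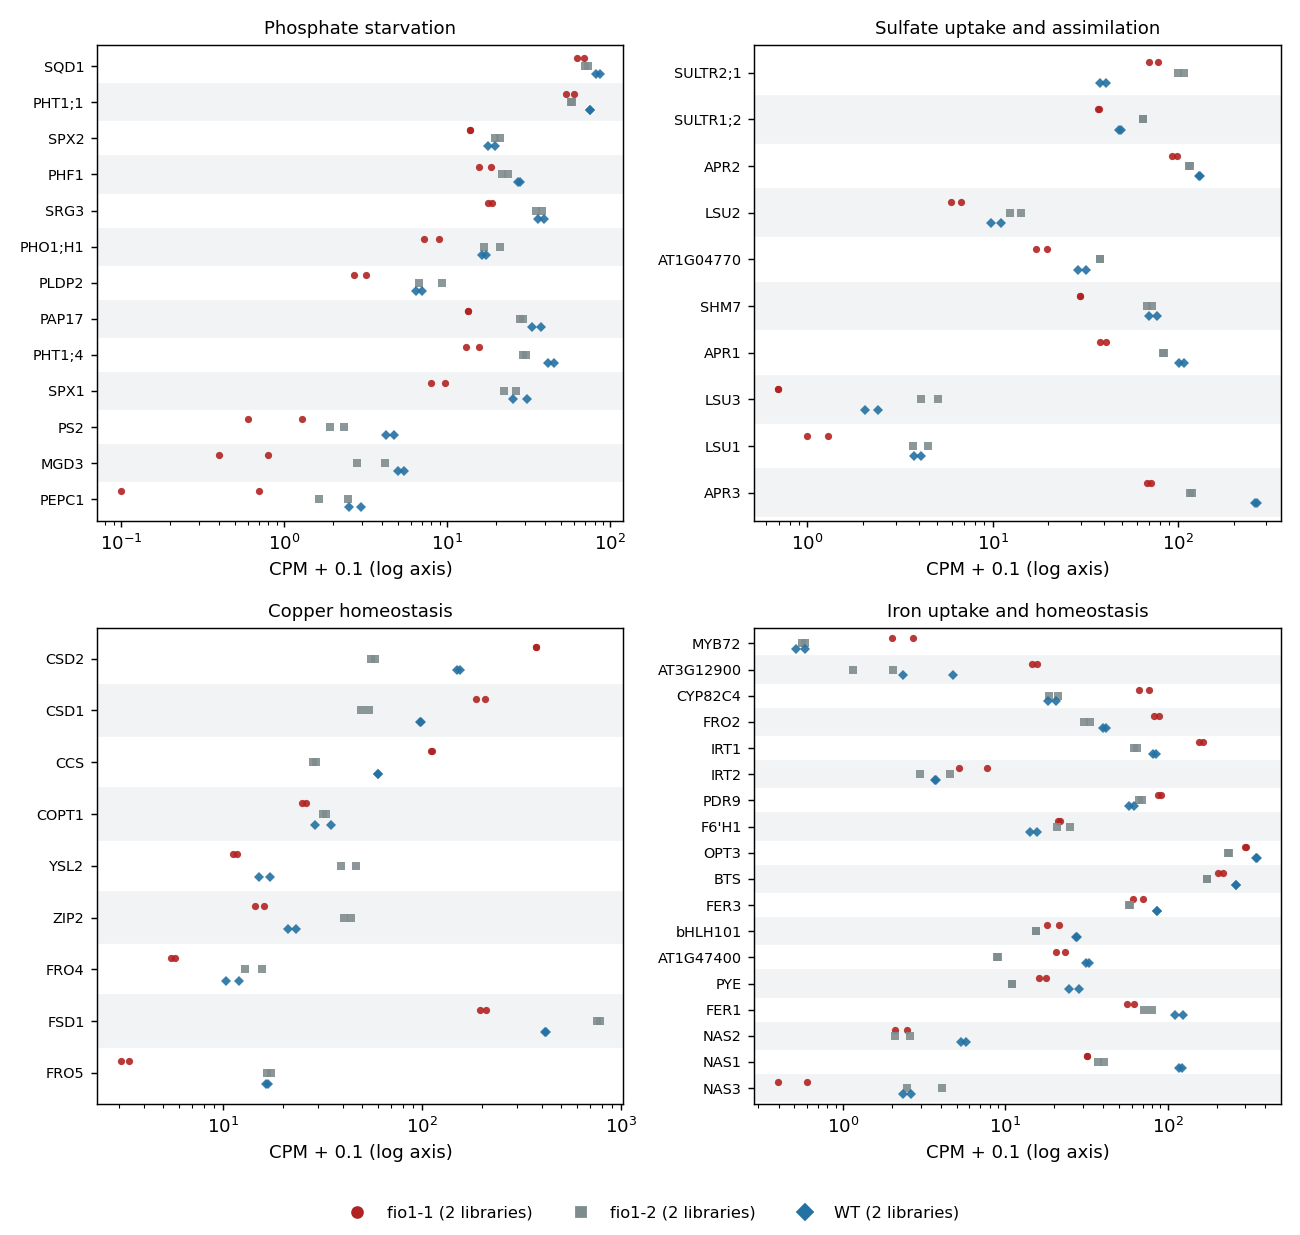
CPM plus 0.1 (x axis, log scale) in each library for the members of the phosphate, sulfate, copper and iron lists that passed the adjusted p in fio1-1 against WT, ordered by fold change. The fio1-1 libraries (red) lie left of the fio1-2 (grey) and WT (blue) libraries at most phosphate genes and right of them at FRO2, IRT1 and CYP82C4; CSD1, CSD2, CCS and FSD1 have WT between the 2 mutants.

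Cell wall loosening genes were higher in fio1-1. Of 26 tested XTH and expansin genes, 9 were called higher and 0 lower, 19 passed the adjusted p in the higher direction and 3 in the lower, and the median log2 fold change was 0.71. For all tested genes the shares were 2.92% called higher and 1.99% lower, with 14.2% past the adjusted p as higher and 14.3% as lower. All 9 called genes were XTH genes. Apart from XTH33 and XTH23, XTH22 (the touch-induced TCH4) had 311 and 312 CPM in fio1-1, 177 and 174 CPM in fio1-2 and 86.7 and 94.4 CPM in WT (log2 fold change 1.78 ± 0.05, adjusted p = 1.4e-39), XTH19 had 58.8 and 55.9 CPM in fio1-1, 39.9 and 39.8 CPM in fio1-2 and 13.3 and 11 CPM in WT (log2 fold change 2.25 ± 0.12, adjusted p = 6.3e-25) and XTH9 had 313 and 323 CPM in fio1-1, against 151 and 143 CPM in WT (log2 fold change 1.12 ± 0.05, adjusted p = 2.1e-30). Among the expansins, EXPA8 had 44.2 and 37.7 CPM in fio1-1, against 21.8 and 19.8 CPM in WT (log2 fold change 0.98 ± 0.11, adjusted p = 1.3e-11) and EXPA10 had 47.8 and 48.4 CPM in fio1-1, against 92.9 and 96.9 CPM in WT (log2 fold change -0.98 ± 0.07, adjusted p = 4.6e-18), moving in opposite directions.

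In the anthocyanin branch, genes of the enzymes and of their repressor changed in opposite directions. The flavonoid list had 17 tested members, 3 called higher and 3 lower, and a median log2 fold change of -0.38, beside 2.92% called higher and 1.99% lower over all tested genes. DFR, dihydroflavonol reductase, had 7.25 and 6.95 CPM in fio1-1, 3.34 and 2.45 CPM in fio1-2 and 1.84 and 2.79 CPM in WT (log2 fold change 1.62 ± 0.30, adjusted p = 1.3e-05). LDOX, the next enzyme, had 5.46 and 5.26 CPM in fio1-1, against 1.84 and 2.12 CPM in WT (log2 fold change 1.42 ± 0.32, adjusted p = 0.00035). MYBL2, a repressor of anthocyanin genes, had 11.7 and 11.5 CPM in fio1-1, 39.3 and 38.1 CPM in fio1-2 and 52.8 and 51.6 CPM in WT (log2 fold change -2.16 ± 0.13, adjusted p = 7.8e-24). MYB12 and MYB111, activators of the flavonol branch, had 2.88 and 3.08 CPM in fio1-1, against 8.18 and 7.60 CPM in WT (log2 fold change -1.39 ± 0.26, adjusted p = 2.0e-05) and 2.08 and 1.99 CPM in fio1-1, against 5.21 and 5.19 CPM in WT (log2 fold change -1.33 ± 0.32, adjusted p = 0.00074). UF3GT was the third higher gene, with 1.79 and 1.59 CPM in fio1-1, against 0.204 and 0.866 CPM in WT (log2 fold change 1.82 ± 0.59, adjusted p = 0.014). Its call was lost under DESeq2 (adjusted p = 0.17), without WT replicate 1 (0.92, adjusted p = 0.35) or fio1-1 replicate 1 (1.73, adjusted p = 0.077), and the value was 2.76 without WT replicate 2.

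Clock genes were called in both directions. Of 31 tested members, 3 were called higher and 5 lower, with a median log2 fold change of -0.09, beside 2.92% higher and 1.99% lower over all tested genes. FKF1, a blue-light receptor that controls the day-length response, had 17.37 and 17.78 CPM in fio1-1, 48.9 and 43.7 CPM in fio1-2 and 46.6 and 46.1 CPM in WT (log2 fold change -1.40 ± 0.11, adjusted p = 2.0e-17). AT4G33980, a gene of evening expression, had 24.9 and 25.3 CPM in fio1-1, 52.5 and 55.6 CPM in fio1-2 and 70.6 and 65.9 CPM in WT (log2 fold change -1.44 ± 0.09, adjusted p = 1.6e-21). Both were lowest in fio1-1. RVE2, a Myb factor of the clock family, had 28.9 and 34.3 CPM in fio1-1, against 80.03 and 79.2 CPM in WT (log2 fold change -1.34 ± 0.09, adjusted p = 1.6e-21). COL1, a CONSTANS relative, had 6.05 and 6.55 CPM in fio1-1, against 14.5 and 17.2 CPM in WT (log2 fold change -1.32 ± 0.18, adjusted p = 1.9e-08). CHE had 58.4 and 59.7 CPM in fio1-1, against 27.9 and 27 CPM in WT (log2 fold change 1.1 ± 0.09, adjusted p = 1.3e-16). LNK2 had 71.6 and 69.5 CPM in fio1-1, against 23.1 and 25.5 CPM in WT (log2 fold change 1.54 ± 0.09, adjusted p = 7.0e-23). LHY, a morning Myb factor, had 3.37 and 3.77 CPM in fio1-1, against 1.33 and 0.481 CPM in WT (log2 fold change 2.1 ± 0.47, adjusted p = 0.00025), with 2.77 without WT replicate 1 and 1.39 (adjusted p = 0.059, not called) without WT replicate 2. LNK2 and its overlapping neighbours RPB5E and AT3G08405 formed a run of 3 genes called higher. The neighbours overlap LNK2 on the other strand by 93 and 266 bases, and reads in those stretches cannot be assigned with certainty. Mean levels in fio1-1 were 3.92 CPM for RPB5E and 7.50 CPM for AT3G08405, beside 70.5 CPM for LNK2. The time of day of the harvest is not given in the sources used here.

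The evening element AAAATATCT, bound by Myb-like clock factors, was searched on both strands of the promoter windows. It was present in 25 of 424 genes called lower (5.90%), 15 of 620 called higher (2.42%) and 2.88% of all tested genes. Of the clock members it was present in 3 of 5 called lower, 0 of 3 called higher and 7 of 23 not called. The 3 lower members are shown, with the match in capitals (AGATATTTT where it lies on the other strand). The G-box CACGTG was present in 70 of 620 genes called higher (11.3%), 34 of 424 called lower (8.02%) and 8.59% of all tested genes. Matches to different motifs may overlap, and no test was made on any share.
FKF1, chr1:25508629-25508658, plus strand: aactaagccaAGATATTTTaaaagtttaaa
PRR5, chr5:8358714-8358743, minus strand: gattttttctAGATATTTTcttttctccac
AT4G33980, chr4:16285180-16285209, minus strand: agctccaaaaaAAAATATCTggctgatatt

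Among floral repressors, 1 of 15 tested members was called higher and 4 lower, with a median log2 fold change of -0.42. For the counts of this paragraph, the shares over all tested genes were 2.92% called higher and 1.99% lower. TEM2, a repressor of FT, had 55.3 and 48.9 CPM in fio1-1, 93.3 and 92.4 CPM in fio1-2 and 163 and 173 CPM in WT (log2 fold change -1.69 ± 0.07, adjusted p = 2.4e-32). TEM1 had 60.6 and 56.9 CPM in fio1-1, 93.2 and 83.4 CPM in fio1-2 and 188 and 191 CPM in WT (log2 fold change -1.69 ± 0.06, adjusted p = 1.8e-33). SMZ, an AP2-type repressor, had 7.74 and 6.85 CPM in fio1-1, against 14.3 and 15.4 CPM in WT (log2 fold change -1.02 ± 0.18, adjusted p = 3.2e-06). Its relative TOE3 had 5.46 and 5.26 CPM in fio1-1, against 2.56 and 2.69 CPM in WT (log2 fold change 1.02 ± 0.29, adjusted p = 0.0052). FLC, the MADS-box repressor of flowering, had 0.298 and 0 CPM in fio1-1, 0.478 and 0.153 CPM in fio1-2 and 3.37 and 1.92 CPM in WT (log2 fold change -4.29 ± 0.79, adjusted p = 1.1e-05), and its size rested on single libraries, at -5.70 without fio1-1 replicate 1 and -2.89 without fio1-1 replicate 2. FLC shares its whole span of 6067 bases with AT5G01675 on the other strand, which was also called lower (log2 fold change -3.65). Mean AT5G01675 levels were 0.347 CPM in fio1-1 and 2.41 CPM in WT. As the strand setting is not stated, the values of FLC and AT5G01675 cannot be separated. Of 13 tested floral promoters, 3 were called higher and 1 lower, with a median of 0.71. The lower one was AGL42, with 0.298 and 0.894 CPM in fio1-1, against 1.94 and 2.31 CPM in WT (log2 fold change -1.92 ± 0.55, adjusted p = 0.0048). Its call was lost under DESeq2 (adjusted p = 0.071), and its log2 fold change was -1.21 without fio1-1 replicate 1. FUL, a MADS-box gene of the inflorescence, had 3.08 and 2.09 CPM in fio1-1, 0.860 and 1.22 CPM in fio1-2 and 0.307 and 0.769 CPM in WT (log2 fold change 2.24 ± 0.55, adjusted p = 0.00089). FD, the bZIP partner of FT, had 3.47 and 3.57 CPM in fio1-1, against 1.64 and 1.64 CPM in WT (log2 fold change 1.08 ± 0.36, adjusted p = 0.017). FT, the mobile flowering signal, had 1.89 and 2.38 CPM in fio1-1, against 0.409 and 0.577 CPM in WT (log2 fold change 2.01 ± 0.55, adjusted p = 0.0032), a call lost without WT replicate 1 (1.79, adjusted p = 0.070). The AGL42, FD, FUL and FT levels are low. The FD call was lost under DESeq2 (adjusted p = 0.097) and without any 1 of the 4 libraries (log2 fold change 1.06 to 1.1, adjusted p = 0.059 to 0.12). The FUL call was lost without WT replicate 1 (1.66, adjusted p = 0.061), and its value was 2.85 without WT replicate 2. SMZ stood at the fold threshold and was -0.97 without WT replicate 2 and -0.94 without fio1-1 replicate 2.

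Light-harvesting genes were mostly higher in fio1-1 by less than the fold threshold. Of 21 tested members 19 passed the adjusted p as higher and 1 as lower, 5 were called higher and the median log2 fold change was 0.51, and among 27 photosystem subunits 1 was. LHCB2.1 had 813 and 811 CPM in fio1-1, 1036 and 1028 CPM in fio1-2 and 300.3 and 286 CPM in WT (log2 fold change 1.47 ± 0.04, adjusted p = 2.7e-44), LHCB3 had 2468 and 2394 CPM in fio1-1, against 1122 and 1160.0 CPM in WT (log2 fold change 1.09 ± 0.02, adjusted p = 4.8e-47) and LHCB4.2 had 1181 and 1116 CPM in fio1-1, against 469 and 473 CPM in WT (log2 fold change 1.29 ± 0.03, adjusted p = 1.5e-43). PSAD2 was the called photosystem gene, with 408 and 417 CPM in fio1-1, against 202 and 198 CPM in WT (log2 fold change 1.04 ± 0.05, adjusted p = 1.6e-30). Photosystem subunits moved by small amounts, with 24 of 27 past the adjusted p and higher, and a median log2 fold change of 0.25. Of 20 genes of chlorophyll synthesis and breakdown and 19 Calvin cycle genes 0 were called. Over all tested genes 4.91% were called, a share at which few calls would fall in lists of this size. The adjusted p was passed by 9 higher and 2 lower chlorophyll genes (55%) and by 6 higher and 6 lower Calvin cycle genes (63.2%). It was passed by 28.6% of all tested genes.

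Cold and abscisic acid markers were called in both directions, with 6 of 19 tested members higher, 2 lower and a median log2 fold change of 0.43. The shares of all tested genes were 2.92% called higher and 1.99% lower. The chloroplast protectant COR15A had 79.7 and 83.3 CPM in fio1-1, 88.1 and 83.7 CPM in fio1-2 and 18.7 and 17.5 CPM in WT (log2 fold change 2.17 ± 0.10, adjusted p = 1.6e-28). KIN1 had 60.2 and 69.1 CPM in fio1-1, against 14.2 and 16.4 CPM in WT (log2 fold change 2.07 ± 0.11, adjusted p = 6.4e-25). RD29B, an abscisic acid marker, had 7.74 and 9.73 CPM in fio1-1, against 2.04 and 2.89 CPM in WT (log2 fold change 1.81 ± 0.29, adjusted p = 7.1e-07). RD26, a NAC factor, had 15.3 and 13.2 CPM in fio1-1, against 39.5 and 38 CPM in WT (log2 fold change -1.44 ± 0.12, adjusted p = 2.4e-16), opposite to the others. ABI1, a phosphatase that restrains the pathway, had 35.6 and 38.8 CPM in fio1-1, against 75.9 and 72.2 CPM in WT (log2 fold change -0.99 ± 0.08, adjusted p = 9.1e-17). Of 16 cuticular wax genes 2 were called higher, namely CER1, needed for alkane synthesis, with 54.6 and 53.9 CPM in fio1-1, against 16 and 19.4 CPM in WT (log2 fold change 1.61 ± 0.11, adjusted p = 1.5e-20), and KCS1, with 69.1 and 75.6 CPM in fio1-1, against 29.6 and 29.8 CPM in WT (log2 fold change 1.28 ± 0.09, adjusted p = 2.6e-20).

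Defence and senescence lists showed single genes moving in either direction. PR2 accompanied PR1, with 6.55 and 5.36 CPM in fio1-1, 18.3 and 25.6 CPM in fio1-2 and 0.818 and 1.25 CPM in WT (log2 fold change 2.49 ± 0.43, adjusted p = 3.2e-06), whereas CBP60g, a regulator of salicylate synthesis, had 7.54 and 6.45 CPM in fio1-1, against 15.1 and 16.1 CPM in WT (log2 fold change -1.16 ± 0.18, adjusted p = 1.8e-07). In the jasmonate list VSP2 had 7.15 and 6.65 CPM in fio1-1, against 1.84 and 0.962 CPM in WT (log2 fold change 2.34 ± 0.36, adjusted p = 2.9e-07) and AOC1 had 6.55 and 5.76 CPM in fio1-1, against 14.1 and 13.1 CPM in WT (log2 fold change -1.14 ± 0.20, adjusted p = 3.7e-06). ORE1, a NAC factor that promotes leaf senescence, had 8.24 and 9.93 CPM in fio1-1, against 34.9 and 36.1 CPM in WT (log2 fold change -1.97 ± 0.15, adjusted p = 1.0e-18), while the senescence marker SAG13 had 4.37 and 4.07 CPM in fio1-1, against 0.613 and 0.577 CPM in WT (log2 fold change 2.73 ± 0.48, adjusted p = 5.5e-06). The median log2 fold changes were -0.01 for 14 salicylate genes, -0.14 for 24 jasmonate genes and -0.60 for 11 senescence genes.

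Glucosinolate genes moved by small amounts. Of 19 aliphatic members 0 were called and 10 passed the adjusted p as lower, with a median log2 fold change of -0.32. Of 15 indole members only CYP81F2 was called, with 6.15 and 4.87 CPM in fio1-1, against 11.8 and 11.1 CPM in WT (log2 fold change -1.05 ± 0.20, adjusted p = 2.7e-05). In the light signalling list, HY5, a bZIP factor of photomorphogenesis, had 13.1 and 12.5 CPM in fio1-1, against 27.6 and 24.6 CPM in WT (log2 fold change -1.02 ± 0.13, adjusted p = 2.3e-09) and its homologue HYH had 6.05 and 6.36 CPM in fio1-1, against 13.5 and 13.1 CPM in WT (log2 fold change -1.09 ± 0.19, adjusted p = 3.1e-06). CYP81F2 without fio1-1 replicate 2 had a log2 fold change of -0.89, and HY5 had -0.94 without WT replicate 1 and -0.99 without fio1-1 replicate 2, below the fold threshold. Among hormone lists, the auxin repressors IAA3 (45.6 and 41.9 CPM in fio1-1, against 17.2 and 18.18 CPM in WT; log2 fold change 1.3 ± 0.11, adjusted p = 3.6e-16) and IAA14 (17.5 and 19.4 CPM in fio1-1, against 8.59 and 6.83 CPM in WT; log2 fold change 1.26 ± 0.17, adjusted p = 4.6e-09) were called higher. The gibberellin enzyme genes GA20OX2 (2.68 and 2.98 CPM in fio1-1, against 0.715 and 1.35 CPM in WT; log2 fold change 1.46 ± 0.44, adjusted p = 0.0076) and GA3OX2 (1.39 and 1.49 CPM in fio1-1, against 5.01 and 5.48 CPM in WT; log2 fold change -1.83 ± 0.36, adjusted p = 3.9e-05) were called in opposite directions. The GA20OX2 call was lost without WT replicate 1 (1.04, adjusted p = 0.17) and without fio1-1 replicate 2 (1.39, adjusted p = 0.050). No member of the ethylene, brassinosteroid or branching lists was called. Beside 4.91% of all tested genes, these 0 calls and those of the aliphatic list say little for lists of this size. The adjusted p was passed by 1 higher and 5 lower ethylene genes, 3 higher and 0 lower brassinosteroid genes and 1 higher and 3 lower branching genes.

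No RNA methylation or splicing gene of the lists was called, beside 4.91% of all tested genes, a share at which few calls would fall in lists of this size. Of 14 tested m6A writers, erasers and readers 0 were called, and 1 was higher and 6 lower past the adjusted p, with a median log2 fold change of -0.20. The largest changes were at AT2G17970, of the ALKBH family, with 16.9 and 18 CPM in fio1-1, against 9.91 and 10.4 CPM in WT (log2 fold change 0.78 ± 0.15, adjusted p = 3.5e-05), and at the reader ECT4, with 41.4 and 45 CPM in fio1-1, against 66.3 and 66.6 CPM in WT (log2 fold change -0.62 ± 0.08, adjusted p = 1.1e-09). MTA, the main mRNA methyltransferase, had 22.9 and 20.2 CPM in fio1-1, against 24.3 and 26.9 CPM in WT (log2 fold change -0.25 ± 0.12, adjusted p = 0.1). Of 8 SAM synthesis genes and 30 splicing factors 0 were called, with medians of -0.12 and 0.01.

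The study lists 74 transcripts as less methylated in fio1-1 by direct RNA sequencing of other libraries. Of these 73 were tested, 2 were called higher and 6 lower, and the median log2 fold change was -0.09, beside 0.0075 for all tested genes. Of the tested members 11% were called and 45.2% passed the adjusted p, beside 4.91% and 28.6% of all tested genes. As the list was chosen on the same mutant, it is not independent of it. AT5G05060 had 5.66 and 5.96 CPM in fio1-1, 4.01 and 5.89 CPM in fio1-2 and 26.1 and 30.9 CPM in WT (log2 fold change -2.28 ± 0.18, adjusted p = 4.2e-17), COG0212 had 16.7 and 14.5 CPM in fio1-1, 14.5 and 16.5 CPM in fio1-2 and 48 and 49.1 CPM in WT (log2 fold change -1.64 ± 0.11, adjusted p = 6.8e-20) and AT3G10060 had 30.2 and 31.4 CPM in fio1-1, 26.8 and 26.6 CPM in fio1-2 and 86.8 and 92.4 CPM in WT (log2 fold change -1.54 ± 0.08, adjusted p = 3.0e-25). At these 3 genes the fio1-2 libraries lay beside those of fio1-1. EXO, which promotes cell expansion, moved the other way, with 213 and 222 CPM in fio1-1, 116 and 124 CPM in fio1-2 and 40.9 and 39.3 CPM in WT (log2 fold change 2.44 ± 0.07, adjusted p = 3.4e-40).

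**Figure D4:**
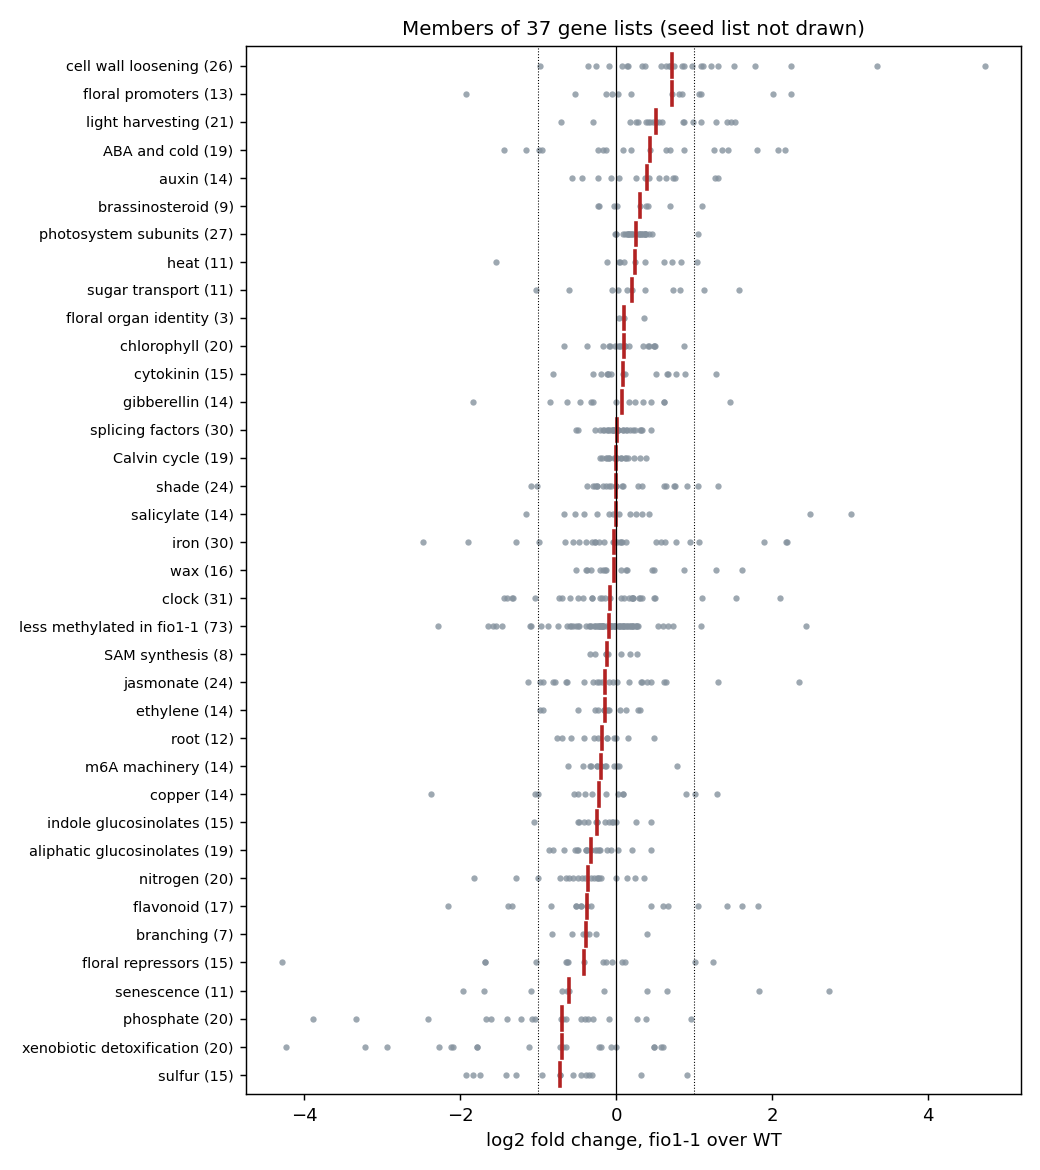
Log2 fold change of fio1-1 over WT (x axis) for each tested member (grey points) of 37 gene lists (y axis, number of tested members in brackets), with the list median as a red bar and dotted lines at a 2-fold change. Medians run from -0.72 for the sulfate list to 0.71 for the cell wall list, and most lists hold members on both sides of 0; the seed list is shown in a plot of its own.

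Seed storage protein genes were higher in fio1-1 seedlings than in WT, where their counts were at or near 0. Of 25 tested members of the seed and late embryo list 15 were called higher and 0 lower, with a median log2 fold change of 2.03. When only the fio1-1 and WT libraries entered the fit, the median was 3.01 over the 20 members that passed the filter. The 10 members not called included OLEO4, with summed counts of 24 in fio1-1 and 25 in WT, and the regulator ABI3, with 19 in fio1-1 and 18 in WT. The filter kept 5 of these 25 only through the fio1-2 libraries, and 14 of the 20 that passed on fio1-1 and WT libraries alone were called higher. Members at or near 0 in WT could pass that filter only through their fio1-1 counts. Such members could hardly be called lower, so the counts of calls in this list are no test of direction. CRA1, a cruciferin, had 12.1 and 12.4 CPM in fio1-1, 1974 and 1925 CPM in fio1-2 and 0.102 and 0.192 CPM in WT (log2 fold change 6.0 ± 0.70, adjusted p = 8.0e-11). SESA3, a seed albumin, had 3.57 and 2.78 CPM in fio1-1, 1036 and 988 CPM in fio1-2 and 0 and 0.0962 CPM in WT (log2 fold change 5.22 ± 0.76, adjusted p = 6.7e-08). The oleosin gene OLEO1 had 2.78 and 1.59 CPM in fio1-1, 273 and 301 CPM in fio1-2 and 0.409 and 0 CPM in WT (log2 fold change 3.86 ± 0.83, adjusted p = 0.00015). The fio1-1 level of CRA1 was 0.629% of that in fio1-2, and those of SESA3 and OLEO1 were 0.314% and 0.760%. Late embryo genes varied, with fio1-1 at 40.1% of fio1-2 for LEA7, 28.4% for M17, 16.1% for LEA4-5, 7.82% for PER1 and 3.04% for ECP63, and EM1 had 0 counts in fio1-1. SESA1 to SESA4 are 4 neighbouring, similar genes called higher. Without WT replicate 1 or 2 the log2 fold change of SESA3 was 4.47 or 5.97. Summed over all 27 listed genes, the level was 69.4 and 70.4 CPM in fio1-1, 9381 and 9721 CPM in fio1-2 and 11.3 and 11.5 CPM in WT. Counts were 0 in both libraries at 2 of the 27 genes in fio1-1 (EM1 and LEC1), 1 in fio1-2 (LEC2) and 7 in WT, among them CRU3, SESA1 and SESA2. The source of the seed transcripts, and their part in other results, was not tested.

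**Figure D5:**
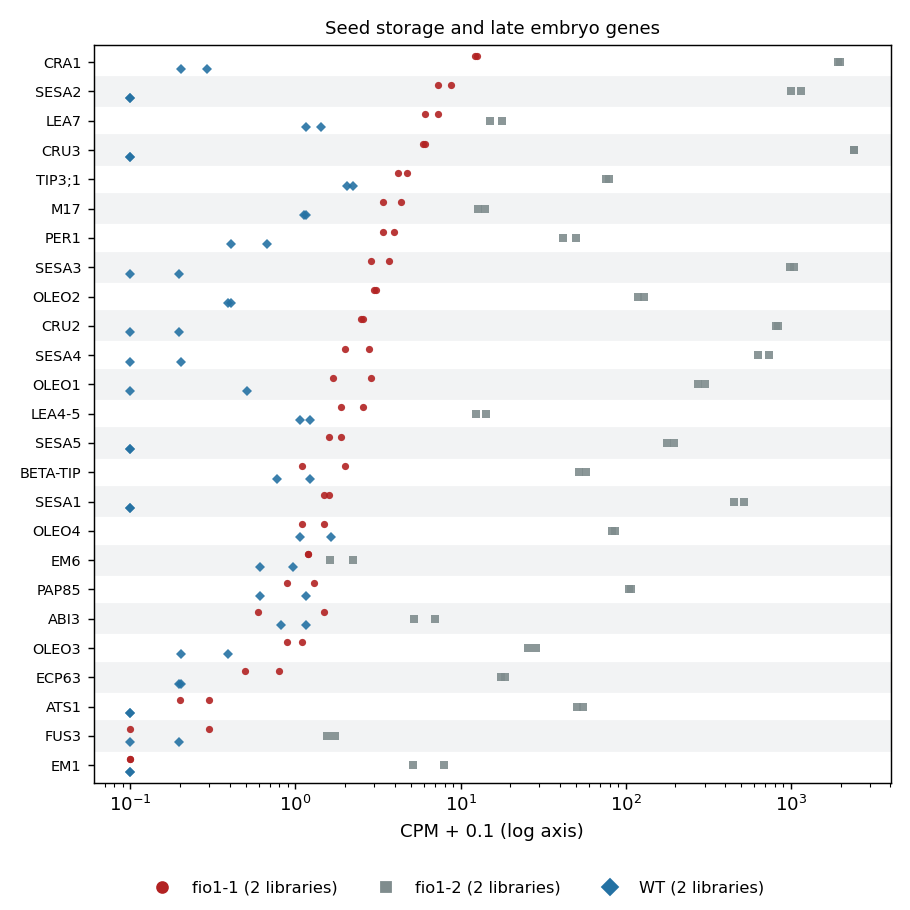
CPM plus 0.1 (x axis, log scale) in each library for 25 seed and late embryo genes, ordered by their fio1-1 level. Storage protein genes are far higher in fio1-2 (grey) than in fio1-1 (red), and lowest in WT (blue), as for CRA1 at 12.1 and 12.4 CPM in fio1-1 against 0.102 and 0.192 CPM in WT.

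Set directly against fio1-2, fio1-1 had 116 genes called higher (0.545%) and 454 called lower (2.13%). The genes called in the same direction against both WT and fio1-2 numbered 50 higher and 60 lower. Besides genes given above, the lower group held AT5G20790, an uncharacterized protein (1.99 and 1.89 CPM in fio1-1, 8.12 and 7.65 CPM in fio1-2 and 10.5 and 11.5 CPM in WT; log2 fold change -2.48 ± 0.30, adjusted p = 2.7e-10), and AT5G18840, a sugar transporter relative (2.08 and 2.28 CPM in fio1-1, 8.79 and 5.21 CPM in fio1-2 and 11 and 11.7 CPM in WT; log2 fold change -2.36 ± 0.30, adjusted p = 1.4e-09). The noncoding gene AT3G05945 had 3.47 and 2.88 CPM in fio1-1, 14.5 and 16.3 CPM in fio1-2 and 13 and 14 CPM in WT (log2 fold change -2.08 ± 0.24, adjusted p = 9.9e-11). AIR1, which overlaps a gene on the other strand, had 2.28 and 3.48 CPM in fio1-1, 11.6 and 11.9 CPM in fio1-2 and 8.99 and 9.71 CPM in WT (log2 fold change -1.71 ± 0.27, adjusted p = 2.9e-07). At AT5G20790, AT5G18840, AT3G05945 and AIR1, WT and fio1-2 differed by less than the fold threshold.

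A run of 4 neighbouring genes on chromosome 4, from 7879558 to 7893761, was lower in fio1-1. UNE15 had 0.298 and 0.298 CPM in fio1-1, 1.53 and 1.22 CPM in fio1-2 and 2.35 and 1.83 CPM in WT (log2 fold change -2.61 ± 0.62, adjusted p = 0.00069), HTA4, a histone H2A gene, had 0.199 and 0 CPM in fio1-1, 0.382 and 0.230 CPM in fio1-2 and 1.02 and 1.35 CPM in WT (log2 fold change -3.47 ± 0.80, adjusted p = 0.00046), AT4G13572 had 0.199 and 0.695 CPM in fio1-1, 1.53 and 1.07 CPM in fio1-2 and 3.78 and 2.98 CPM in WT (log2 fold change -2.98 ± 0.57, adjusted p = 2.6e-05) and AT4G13575 had 0.496 and 0.497 CPM in fio1-1, 2.39 and 1.91 CPM in fio1-2 and 4.60 and 4.23 CPM in WT (log2 fold change -3.03 ± 0.51, adjusted p = 1.9e-06). All 4 were weakly expressed. The flanking genes AT4G13550 (34.9 and 35.5 CPM in fio1-1, against 39.3 and 40.2 CPM in WT) and AT4G13580 (23.9 and 23 CPM in fio1-1, against 20.5 and 20.01 CPM in WT) were not called. A total of 12 runs of 3 or more consecutive tested genes called in the same direction were found, including the GSTU, UGT73C and SESA clusters.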

How the data were processed

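RNA of 14-day-old seedlings was sequenced in 6 libraries, 2 each of fio1-1, fio1-2 and WT. Per the labels and methods, the authors trimmed reads with Trim Galore 0.6.3, aligned them to TAIR10 with HISAT2 2.1.0 and deposited raw read counts per gene made with HTSeq 0.9.1; the strand setting is not given in the sources used here. The authors' limma tables (fold changes and p-values of their own comparisons) were not used.

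Here, filterByExpr of edgeR 4.0.16 kept 21268 of 32833 genes. One limma-voom fit (limma 3.58.1, R 4.3.3, TMM factors) of all 6 libraries with a mean per genotype gave log2 fold changes, standard errors and two-sided p-values, adjusted by Benjamini-Hochberg over all tested genes. Calls needed an adjusted p under 0.05 and an absolute log2 fold change of at least 1. The scripts were tested on simulated data. An exact permutation test of 2 against 2 libraries cannot go below p = 0.333, so none was used. Counting intervals cover counting error only. Gene names, positions and sequences came from RefSeq TAIR10.1, which matched 21226 tested genes; the count files carry no coordinates.

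Named genes were FIO1, the 15 largest changes in each direction and the 6 genes furthest apart from both WT and fio1-2 in each direction (mean of at least 5 CPM, no overlap with WT), and up to 4 members per list with the largest change past the adjusted p, plus defining members that did not change; other genes were named after their values were seen. The members and lists were chosen with earlier results of these data known. Alternatives were edgeR's quasi-likelihood test, DESeq2 1.42.0, RLE and upper-quartile factors, no filter, the 4 libraries alone, a replicate block, and each library left out.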

Additional observations from a re-analysis of the deposited data

Results flagged for a closer look

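Of 170 named genes, 42 differed between fio1-1 and fio1-2 by a call in the contrast of the 2 mutants (limma-voom), 13 with higher and 29 with lower levels in fio1-1. This difference between the mutants is what singled them out. Over all tested genes 2.68% were called in this contrast. The 6 genes furthest apart in each direction were named because of such a call, so the 42 cannot be set against that share. The values are log2 fold changes of fio1-1 over fio1-2, and no cause of any of them was tested.

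Above fio1-2, the noncoding gene AT2G01422 stood at 6.72. The wall genes stood at 2.77 for XTH33, 1.35 for XTH23 and 1.16 for EXLA1. The iron genes stood at 3.32 for AT3G12900, 2.15 for MYB72 and 1.85 for CYP82C4. The copper/zinc dismutases stood at 2.71 for CSD2 and 1.95 for CSD1, and the remaining higher genes at 1.74 for AT1G72416, 1.64 for SLAH3, 1.32 for DFR and 1.25 for FUL.

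Below fio1-2, the phosphate genes stood at -3.48 for PEPC1, -2.75 for MGD3, -1.46 for SPX1 and -1.33 for PS2. The sulfur genes stood at -2.82 for LSU3, -1.91 for LSU1 and -1.08 for APR1, and the metal genes at -2.89 for NAS3, -2.41 for FRO5 and -1.92 for FSD1. Clock genes stood at -1.39 for FKF1 and -1.11 for AT4G33980. The seed genes stood at -8.66 for CRU3, -8.30 for SESA3, -7.31 for CRA1 and -7.09 for SESA2, and the defence and glyoxylate genes at -1.88 for PR2, -1.71 for PR1 and -1.54 for MLS. The remaining lower genes stood at -1.01 for FMOGS-OX1, -1.03 for PORA, -1.13 for FMOGS-OX3, -1.32 for GA20OX2, -1.57 for AT5G18840, -1.65 for EXPA18, -1.73 for MYBL2, -1.99 for AT5G20790, -2.04 for AIR1 and -2.27 for AT3G05945.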

How the results depend on the processing

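Among the counts over all tested genes, 5 values moved by over 1.5 times. DESeq2 gave 1770 higher and 1800 lower genes past the adjusted p alone and 26 genes higher than both other genotypes, and the cause was not tested. Without WT replicate 1 or 2 the higher genes past the adjusted p numbered 1980 and 1974, with fewer libraries in the fit. Leaving out a library gave 485 to 626 higher and 366 to 442 lower calls, 1974 to 3047 higher and 2199 to 3138 lower genes past the adjusted p alone, and 38 to 57 higher and 41 to 61 lower genes apart from both other genotypes. DESeq2 called 810 genes, of which 803 were among the 1045 of limma-voom. Upper-quartile factors called 64.1% of genes in the higher direction, beside 59.4%. Called floral promoters numbered 1 without WT replicate 1, 2 without fio1-1 replicate 1 and 2 under DESeq2, beside 4. Called copper genes numbered 2 without fio1-1 replicate 2, beside 5, and floral repressors 3 without WT replicate 2, beside 5. Ethylene genes, with 0 called, gave 2 without WT replicate 2 and 1 without fio1-1 replicate 1, and root markers gave 1 without WT replicate 2. The seed median moved most, to 3.01 with only the fio1-1 and WT libraries. There the filter kept 20 of the 25 members, so the medians cover different genes. No named gene reversed. Of 170 named genes, 133 kept their side of the threshold under all 13 alternatives. None of 494 recomputed list medians changed sign where the median exceeded 0.2 in size.

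The replicate numbers of fio1-1 and WT did not pair (correlation of replicate differences across genes 0.00031). With the replicate block, 608 genes were called higher and 417 lower. The block moved no count of calls by over 1.5 times. Where a library was left out, the lone sample of its genotype was assumed to vary like the others. With upper-quartile factors ASN2, FSD1, HY5 and SMZ fell just under the fold threshold. Low counts limit genes such as FUL, FD, UF3GT and LSU3.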

Other observations

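Gene families by annotated product, chosen after the values had been seen, are given as counts only. Over all tested genes 2.92% were called higher and 1.99% lower. Of 118 tested UDP-glycosyltransferase genes, 2 were called higher and 24 lower, with a median log2 fold change of -0.23. Of 11 genes whose annotated product names an ethylene response factor, 0 were called higher and 5 lower, with a median of -1.07. These 11 are a part of the family, as members with another product name, such as ORA47, are not among them. ERF5 had 3.18 and 3.48 CPM in fio1-1, against 15.9 and 15 CPM in WT, and ERF2 had 8.83 and 6.95 CPM in fio1-1, against 26.5 and 27.8 CPM in WT. WRKY factors numbered 52, with 3 called higher and 8 lower. WRKY33, a factor of the response to fungi, had 26.9 and 21.5 CPM in fio1-1, against 93.1 and 83.2 CPM in WT, and WRKY40 had 11.3 and 10.4 CPM in fio1-1, against 42.9 and 44.4 CPM in WT, whereas its relative WRKY18 had 67.6 and 78.2 CPM in fio1-1, against 20.9 and 21.1 CPM in WT. The reductases OPR1 and OPR2 were both lower, OPR1 with 70.8 and 77.2 CPM in fio1-1, 69.2 and 72.7 CPM in fio1-2 and 343 and 344 CPM in WT. AER, an alkenal reductase, had 111 and 119 CPM in fio1-1, 111 and 109 CPM in fio1-2 and 392 and 373 CPM in WT, and lies in a run of 3 neighbouring genes called lower.

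In the other direction, 4 of 44 fasciclin and arabinogalactan protein genes were called higher and 0 lower, and 21 passed the adjusted p as higher. AGP17 had 43.9 and 46.2 CPM in fio1-1, 21.4 and 24.2 CPM in fio1-2 and 9.81 and 9.81 CPM in WT, and FLA9 had 174 and 170.4 CPM in fio1-1, 107 and 99.1 CPM in fio1-2 and 58.3 and 57.7 CPM in WT. Of 7 tested EXORDIUM family genes 4 were called higher, among them PHI-1 with 102 and 103 CPM in fio1-1, 49.5 and 47.4 CPM in fio1-2 and 28 and 31.3 CPM in WT. Lipid transfer proteins had 10 of 70 called higher and 2 lower. Of 34 annotated small nucleolar RNA genes 5 were called higher and 0 lower, with a median of 0.45.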
